A study of Mus musculus with 4 samples.

Results

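The genes n-TStga1 and n-TSaga9 are nuclear genes for serine transfer RNA by their symbols, although the annotation gives both the microRNA biotype. They were taken by symbol, and they are 2 of 47069 genes counted, of which 14421 had a count in any library. They were chosen because of how their counts differed between exosomes and tumour, so those counts are described below and not tested. Lewis lung carcinoma, an established mouse lung carcinoma line, had been grown under the skin of C57BL/6 mice, and all 4 libraries come from such tumours. The 2 exosome libraries hold total RNA of vesicles that tumour pieces shed into serum-free medium, collected with a precipitation reagent after filtration, and the 2 tumour libraries hold total RNA of the primary tumour itself. The labels call the libraries of a group replicates without saying whether they came from separate animals, so the spread between them may be technical. Tumour pieces hold host cells as well as carcinoma cells, and in bulk RNA fewer cells of a type and less RNA per cell cannot be told apart.

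Transfer RNAs carry amino acids to the ribosome, and those for serine belong to the class with a long variable arm. RNA polymerase III transcribes their genes from promoter elements inside the gene, the A box and the B box, and stops at a run of T. The primary transcript carries a short leader, which RNase P removes, and a trailer, which tRNase Z (the product of Elac2) removes before the CCA end is added. The mature molecule is abundant in every cell, and pieces of mature and of precursor transfer RNA have been found in many cells and in vesicles.

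The copies can be told apart by few bases, so their positions and differences come first. Gene n-TStga1 (ENSMUSG00000104750) lies on the plus strand at chr13:23518142-23518250 in GRCm38 and covers 109 bases. Gene n-TSaga9 (ENSMUSG00000106355) lies on the plus strand at chr4:10874064-10874170 and covers 107 bases. RefSeq, on GRCm38.p6, places an 82-base transfer RNA inside each, called the body here. In n-TStga1 the counted gene adds 4 bases of leader before the body and 23 bases of trailer after it, and in n-TSaga9 it adds no leader and 25 bases of trailer. A search of the RefSeq positions also found a serine transfer RNA gene, n-TStga2, inside the counted gene Gm44456 (ENSMUSG00000105839, minus strand, chr13:21924928-21925016, 89 bases), which has no leader and 7 bases of trailer. Gm44456 is set beside the members throughout.

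The bodies of n-TStga1 and n-TSaga9 were identical at 80 of 82 bases, 97.6%. Counted from 1 at the first base of the body, with the base of n-TStga1 first, they differed by T34A, the first base of the anticodon, and by T50C. The bodies of n-TStga1 and Gm44456 were identical at all 82 bases, so these genes differ only outside the body. The first run of T began after 8 bases of trailer in n-TStga1, after 10 in n-TSaga9 and after 1 in Gm44456.

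How far a read could separate the copies was described with windows of 20 bases, on either strand, among all GENCODE M21 transcripts. Of the 90 windows of n-TStga1, 63 also lay in Gm44456 and 27 in n-TSaga9. The 27 windows of n-TStga1 that no other annotated gene held all touched its leader or trailer, since its body is shared whole with Gm44456. Of the 88 windows of n-TSaga9, 60 were in no other annotated gene, and of the 70 windows of Gm44456 only 6 were. RefSeq lists 408 transfer RNA genes outside the mitochondrial genome, 22 of them for serine (8 with the anticodon GCT, 7 with AGA, 3 with TGA, 3 with CGA and 1 with GGA). Only 4 of the 408 lay inside a counted gene of at most 300 bases, namely n-TStga1, n-TSaga9, n-TStga2 in Gm44456 and an isoleucine gene in Mir1983. Mir1983 had 2 counts in tumour replicate 1 and none in the other libraries. How reads matching several places were counted is not given in the sources used here, so reads from uncounted serine genes with the same body could be among those described.

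The exosome libraries held 305751 and 217201 counts and the tumour libraries 14543691 and 10849811, so 1 count was worth 3.27 and 4.60 CPM in exosomes and 0.0688 and 0.0922 CPM in tumour, where CPM stands for counts per 1000000 counts of the library. Gene n-TStga1 had 1694 and 1075 counts in exosome replicates 1 and 2 and 18 and 11 in tumour replicates 1 and 2. As a share of all counts this was 5540 CPM (exact Clopper-Pearson 95% interval 5280 to 5810) and 4949 CPM (4659 to 5253) in exosomes. In tumour it was 1.24 CPM (0.734 to 1.96) and 1.01 CPM (0.506 to 1.81). Both exosome libraries stood far above both tumour libraries. The lower exosome value was 3999 times the higher tumour value. Of all tested genes 63.8% were called higher in exosomes by edgeR with library totals, the scale of these shares, and 16% with TMM. Nothing is read from that here because the same contrast chose the members. Means were 5245 ± 418 CPM in exosomes and 1.13 ± 0.158 CPM in tumour (SD, n = 2). The exosome intervals did not overlap each other, while the tumour intervals did. Intervals cover counting error only and treat each read as independent. Amplified reads without molecular identifiers are not independent molecules, so intervals that do not overlap cannot show a difference beyond counting error.

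Gene n-TSaga9, with the anticodon AGA, had 11 and 9 counts in the exosome libraries and 31 and 14 in the tumour libraries, fewer counts in the exosomes but in much shallower libraries. As a share it stood at 36.0 CPM (95% interval 18.0 to 64.4) and 41.4 CPM (18.9 to 78.7) in exosomes and at 2.13 CPM (1.45 to 3.03) and 1.29 CPM (0.705 to 2.16) in tumour. Both exosome shares were above both tumour shares, the lower exosome value being 16.9 times the higher tumour value, and the replicates of each group had overlapping intervals. On this scale of library totals, 63.8% of all tested genes were called higher in exosomes, so a higher share was common. Means were 38.7 ± 3.86 CPM and 1.71 ± 0.595 CPM (SD, n = 2).

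**Figure D1:**
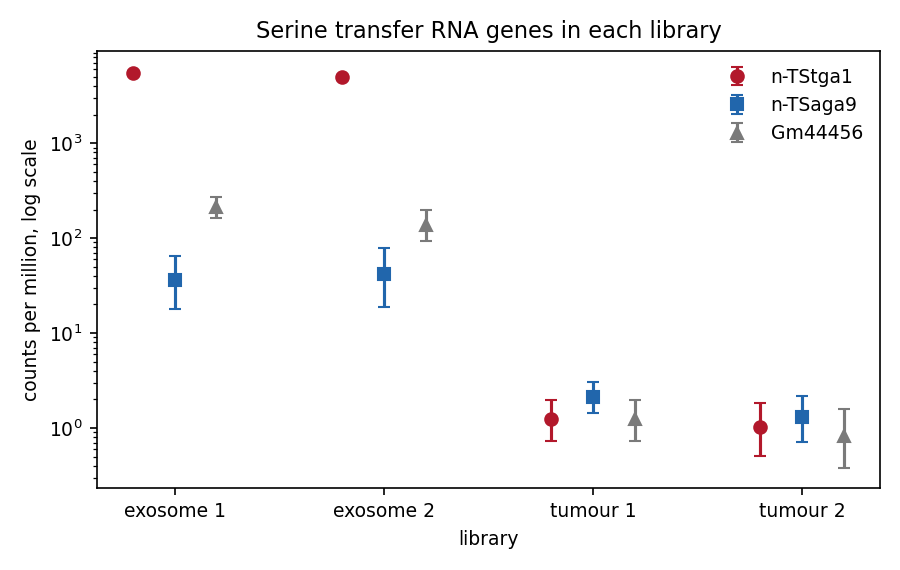
CPM of n-TStga1, n-TSaga9 and Gm44456 in each of the 4 libraries, on a log axis, with exact 95% intervals for counting error as bars. In tumour the 3 genes lie between 0.830 and 2.13 CPM, and in exosomes n-TStga1 stands at 5540 and 4949 CPM.

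Gm44456, which shares its whole body with n-TStga1, lay between the members in exosomes. It had 65 and 30 counts there, or 213 CPM (95% interval 164 to 271) and 138 CPM (93.2 to 197). In tumour it had 18 and 9 counts, or 1.24 CPM and 0.830 CPM. The lower exosome share was 112 times the higher tumour share. In tumour replicate 1, n-TStga1 and Gm44456 had the same count.

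Levels can be set between genes only per length, for which the authors' deposited FPKM (the count scaled to gene length and library total) were used. In exosomes n-TStga1 stood at 50830 and 45406 FPKM, n-TSaga9 at 336 and 387 FPKM and Gm44456 at 2389 and 1552 FPKM. In tumour n-TStga1 stood at 11.4 and 9.30 FPKM, n-TSaga9 at 19.9 and 12.1 FPKM and Gm44456 at 13.9 and 9.32 FPKM. The order in exosomes was therefore n-TStga1, Gm44456 and n-TSaga9 in both replicates. In tumour n-TSaga9 was highest in both replicates, and the counting intervals of all 3 genes overlapped there. By FPKM n-TStga1 ranked 31st and 32nd among all genes in the exosome libraries and 400th and 410th in the tumour libraries. By count, without scaling to length, it ranked 33rd and 35th in exosomes and 891st and 998th in tumour. The tumour ranks rest on 18 and 11 counts.

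The counts divided differently between the copies in the 2 groups. Of the counts of the 3 genes, n-TStga1 held 95.7% (1694 of 1770, exact 95% interval 94.7% to 96.6%) and 96.5% (1075 of 1114, 95.2% to 97.5%) in exosome replicates 1 and 2. In tumour it held 26.9% (18 of 67, 16.8% to 39.1%) and 32.4% (11 of 34, 17.4% to 50.5%). Gene n-TSaga9 held 0.621% and 0.808% in exosomes and 46.3% and 41.2% in tumour, and Gm44456 held 3.67% and 2.69% against 26.9% and 26.5%. Replicates thus divided alike within each group, with n-TStga1 holding the larger part in exosomes. The shares of the 3 genes add to the whole, so the lower exosome shares of n-TSaga9 and Gm44456 follow from that of n-TStga1. The CPM of both genes was higher in exosomes. The ratio of n-TStga1 to Gm44456 counts, which comes from genes with an identical body, was 26.1 and 35.8 in exosomes and 1 and 1.22 in tumour. These shares come from the counts the members were chosen on and are not tested. Reads lying wholly within the body cannot tell n-TStga1 from Gm44456, and which part of the gene the reads covered was not analysed here.

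**Figure D2:**
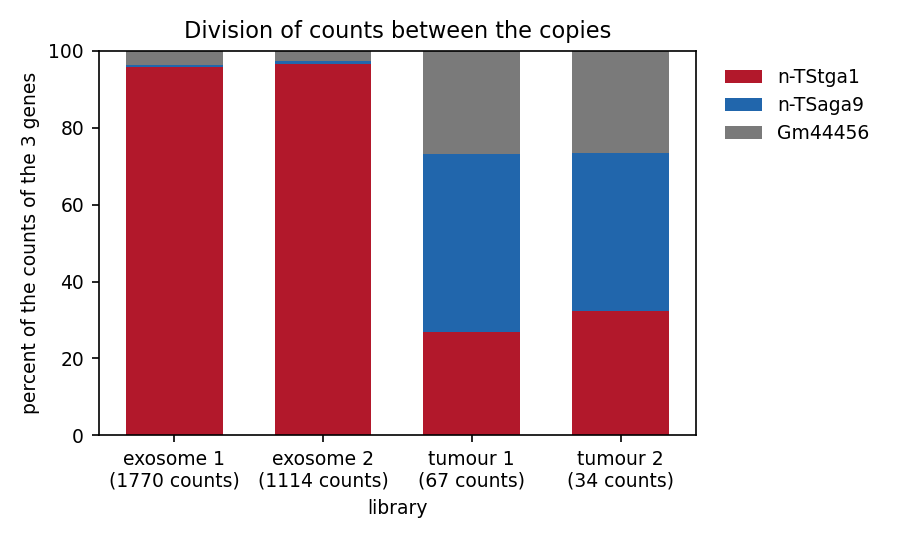
Percent of the counts of the 3 genes that fell on n-TStga1, n-TSaga9 and Gm44456 in each library, with the number of counts under each bar. In both exosome libraries n-TStga1 fills over 95% of the bar, and in both tumour libraries it fills 26.9% and 32.4%.

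With the counts of the members summed, because reads may be shared, the pair came to 5576 and 4991 CPM in exosomes and 3.37 and 2.30 CPM in tumour. With Gm44456 added the sums were 5789 and 5129 CPM against 4.61 and 3.13 CPM. The sum for exosomes is almost wholly n-TStga1. Within the genes of microRNA biotype, n-TStga1 held 42.8% and 28.6% of the exosome counts and 0.00101% and 0.000857% of the tumour counts.

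The size of the difference depends on how libraries are scaled. TMM scaling, which sets the typical tested gene near 0, gave a median log2 difference (exosomes minus tumour) of 0.018 over 1442 tested genes, and library totals gave a median of 2.75. On the TMM-scaled CPM, n-TStga1 stood at 2321 and 1699 in exosomes and 3.17 and 2.75 in tumour, a fitted log2 difference of 9.37. With library totals its log2 difference was 12.15. Of the 1442 tested genes, 2 had a higher log2 difference than n-TStga1 under either scaling. On the TMM-scaled CPM, n-TSaga9 stood at 15.1 and 14.2 in exosomes and 5.46 and 3.51 in tumour, a log2 difference of 1.66, and with library totals it had 4.44. Under TMM 232 genes had a higher log2 difference than n-TSaga9. Gm44456 had log2 differences of 4.61 with TMM and 7.37 with library totals. In tumour n-TStga1 and Gm44456 lay below 1.79 CPM, the level the filter asked for in 2 libraries. There n-TSaga9 reached it in replicate 1 alone. All 3 genes thus passed the filter only with their exosome counts, and the members were chosen on this contrast. Nothing is read from where they stand among the tested genes. The summed pair had 8.06 with TMM and 10.83 with library totals.

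The sign of the n-TSaga9 difference rests on the genes used for scaling. With TMM computed over all 14421 genes with a count, its log2 difference was 0.49, where the median gene had −1.86. With tumour replicate 1 or 2 left out and the filter applied again, which left 394 or 397 genes, it was −0.17 or −0.82. The median tested gene had −1.32 or −1.50 there. TMM thus did not set the typical gene near 0 in these fits, and n-TSaga9 was above the median in each. When the 1442 genes were kept, the values without those libraries were 2.04 and 1.42. The log2 difference of n-TStga1 was between 7.04 and 12.15 in every setting run.

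**Figure D3:**
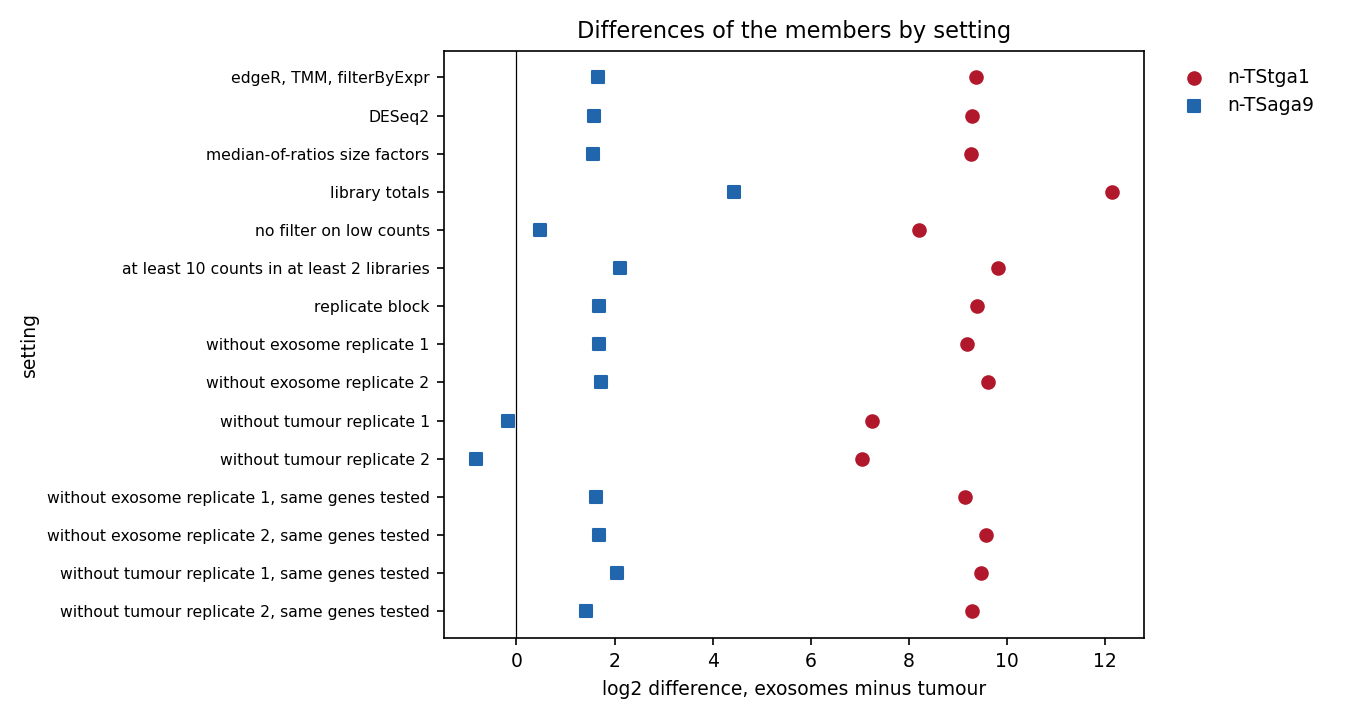
Log2 difference (exosomes minus tumour) of n-TStga1 and n-TSaga9 under each setting run, with a line at 0. The line is not the median tested gene in every setting, which had for instance −1.86 with no filter on low counts. The circles of n-TStga1 lie between 7.04 and 12.15, and the squares of n-TSaga9 between −0.82 and 4.44.

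Other genes of the transfer RNA pathway were taken by list and read from edgeR's quasi-likelihood test over the 1442 genes, with Benjamini-Hochberg adjustment at 0.05. Over all tested genes, 16% were called higher in exosomes and 22.1% lower with TMM, and 63.8% and 11.5% with library totals. The filter asked for 1.79 CPM in 2 libraries, and 1 count in an exosome library exceeds that. Genes below that level in tumour passed only through their exosome counts. For them a higher share in exosomes with library totals was largely set by the filter. No other nuclear transfer RNA gene was counted under a transfer RNA symbol. Of 22 mitochondrial transfer RNA genes, 21 were tested, 19 were called lower in exosomes and none higher with TMM. With library totals 15 were called lower and 1 higher. The median log2 difference of the 21 was −4.17 with TMM, with the 3 genes that had no exosome count set at a floor of 3 counts per library. Their summed level was 2325 and 2302 CPM in exosomes and 19620 and 13812 CPM in tumour, the reverse of the order seen for n-TStga1.

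The mitochondrial genome has its own serine transfer RNAs, mt-Ts1 and mt-Ts2. The mt-Ts2 gene had 182212 and 87815 tumour counts and 337 and 269 in exosomes, and fell by 5.93 on the log2 scale with TMM (SE 0.26, edgeR adjusted p = 5.72e-07). With library totals its log2 difference was −3.14. The mt-Ts1 gene had 500 and 310 tumour counts and 71 and 41 in exosomes. Its log2 difference was −0.02 with TMM (SE 0.21, edgeR adjusted p = 0.960), and 2.75 with library totals, where it was the 1 gene of the list called higher. Beyond the serine genes, mt-Th, for histidine, had −7.12 and mt-Tv, for valine, had −6.90 with TMM, and both were called lower under either scaling.

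Of the 22 genes for leader and trailer removal, splicing and the CCA end, 18 had a count and only Rpph1, the RNA of RNase P, had enough for a test. Rpph1 had 1783 and 1094 tumour counts and 85389 and 46908 in exosomes, and rose by 8.34 on the log2 scale with TMM (SE 0.33, edgeR adjusted p = 3.48e-07). Elac2, the gene of tRNase Z, had 2 and 0 exosome counts against 3 and 0, and Ssb, the gene of the La protein that binds the ends of precursor transcripts, had 2 and 0 against 19 and 11. Of 6 genes for serine charging and selenocysteine, which is made on a transfer RNA first charged with serine, Secisbp2 alone was tested. Secisbp2 counts were 117 and 100 in tumour and 0 in both exosome libraries, where it was called lower with TMM (edgeR adjusted p = 0.000655), at least 5.15-fold against 3 counts per exosome library. It was also called lower with library totals, where the floor itself exceeded the tumour level, so that no fold is given. Sars, the gene of the cytosolic seryl-tRNA synthetase, had 8 and 7 tumour counts and 1 and 0 in exosomes, too few for a test.

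Among 20 listed symbols of other cytosolic synthetases 5 genes were tested and none was called with TMM, although 3 were called higher with library totals. Over all tested genes 63.8% were called higher with library totals. In the list of export and delivery genes 3 were tested. Eef1a1, which brings charged transfer RNA to the ribosome, had 37 and 32 exosome counts against 350 and 198, with a log2 difference of −0.14 (SE 0.21, edgeR adjusted p = 0.708). Neither Xpot, the export receptor of transfer RNA, nor Ran was called with TMM, and all 3 of the list were called higher with library totals. Xpot and Ran passed the filter through their exosome counts alone. Of the modification genes only Trmt1 was tested, with 1 count in each exosome library and a log2 difference of 0.13 with TMM (SE 0.72, edgeR adjusted p = 0.954). With library totals Trmt1 was called higher, with a log2 difference of 2.86 (edgeR adjusted p = 0.0489). Trmt1 also passed the filter through its exosome counts alone. None of 7 genes that act in transfer RNA cleavage, Ang and Rnh1 among them, and none of 23 genes of the RNA polymerase III machinery had enough counts for a test.

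Other transcripts of RNA polymerase III make a comparison of genes read by the same enzyme. Of 58 tested, 45 were called higher in exosomes and 10 lower with TMM, with a median log2 difference of 2.69. With library totals 56 were called higher and 1 lower. Over all tested genes the shares were 16% higher and 22.1% lower with TMM, and 63.8% and 11.5% with library totals. Of the 58, 50 are copies of 5S ribosomal RNA by their symbols, of which 40 were called higher and 7 lower with TMM. Each copy is uncertain, since how reads matching several places were counted is not given in the sources used here. Many copies had nearly the same counts in every library. For instance, n-R5s100 had 965 and 849 exosome counts against 1193 and 804, and n-R5s110 had 979 and 848 against 1173 and 830. Such copies are not separate observations, so the calls and the median of this list mostly repeat 5S RNA. Rmrp, the RNA of RNase MRP, rose by 5.98 (SE 0.22, edgeR adjusted p = 2.74e-07), and the vault RNA Vaultrc5 rose by 3.20 (SE 0.14). Rn7sk, the 7SK RNA, fell by 5.82 with TMM (SE 0.20, edgeR adjusted p = 1.80e-07), and it was the 1 gene of the list still lower with library totals, at −3.04. Transcripts of this polymerase therefore did not share 1 direction. The difference of n-TStga1 is not ranked among them, since the gene was chosen on it.

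**Figure D4:**
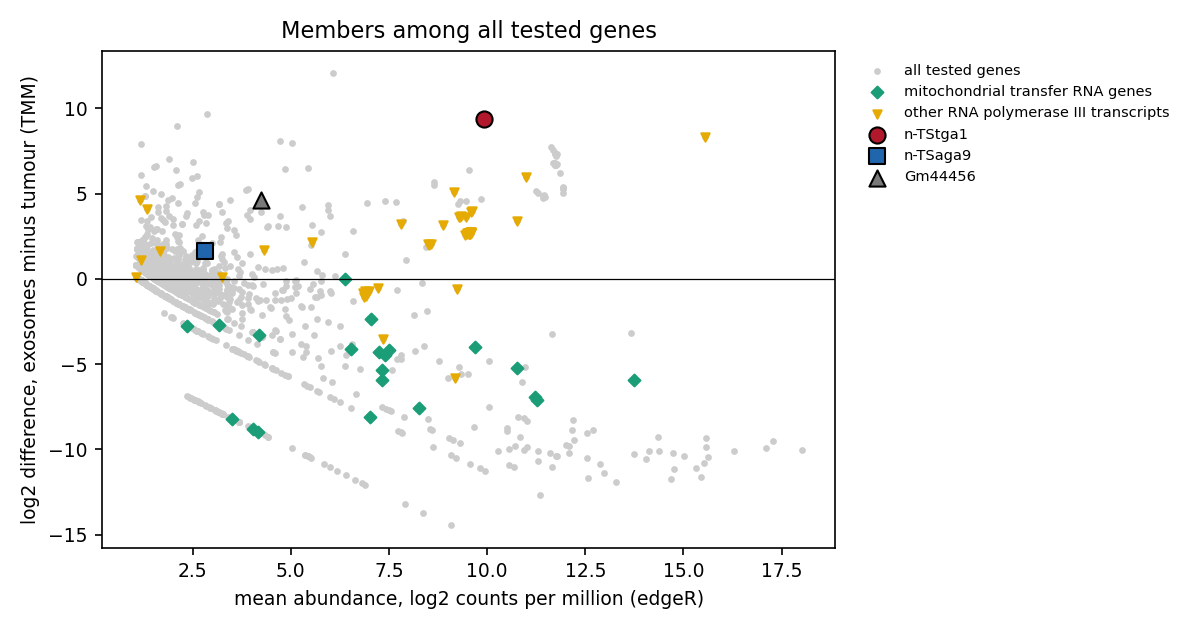
Log2 difference (exosomes minus tumour, TMM) against mean abundance in log2 CPM for the 1442 tested genes in grey, with n-TStga1, n-TSaga9, Gm44456, the mitochondrial transfer RNA genes and other RNA polymerase III transcripts marked. The circle of n-TStga1 stands at 9.37 and the square of n-TSaga9 at 1.66. Of the 21 mitochondrial transfer RNA genes 19 were called lower, against 22.1% of all tested genes.

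The neighbourhoods of the members were read from genes that start or end within 100 kb. Gene n-TStga1 lies beside histone cluster 1 on chromosome 13. Of its 22 neighbours 15 had a count and 12 were tested, all of them histone genes. With TMM 10 of the 12 were called lower in exosomes and none higher, against 22.1% lower over all tested genes. With library totals 3 were lower and none higher, against 11.5% lower over all tested genes. Hist1h4d, a histone H4 gene with its start 63.5 kb from that of n-TStga1, had 1663 and 1417 tumour counts and 1 in either exosome library, a log2 difference of −7.74 (SE 0.34, edgeR adjusted p = 6.05e-07). The largest exosome count of any neighbour was 3, so no gene around n-TStga1 had exosome counts like its own. The closest with a count, Hist1h4h, had 83 and 54 tumour counts and 0 and 1 in exosomes. Gene n-TSaga9 lies in a region with few counts. Of its 7 neighbours 4 had a count, and the 1 tested, the pseudogene Gm12918, had 2 and 1 exosome counts against 11 and 9 and was not called with TMM (log2 difference 0.09). With library totals Gm12918 was called higher, with a log2 difference of 2.83 (edgeR adjusted p = 0.0167). Gm12918 passed the filter through its exosome counts alone. The gene 2610301B20Rik starts 0.434 kb after the start of n-TSaga9 and had no exosome count against 2 and 1 in tumour.

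**Figure D5:**
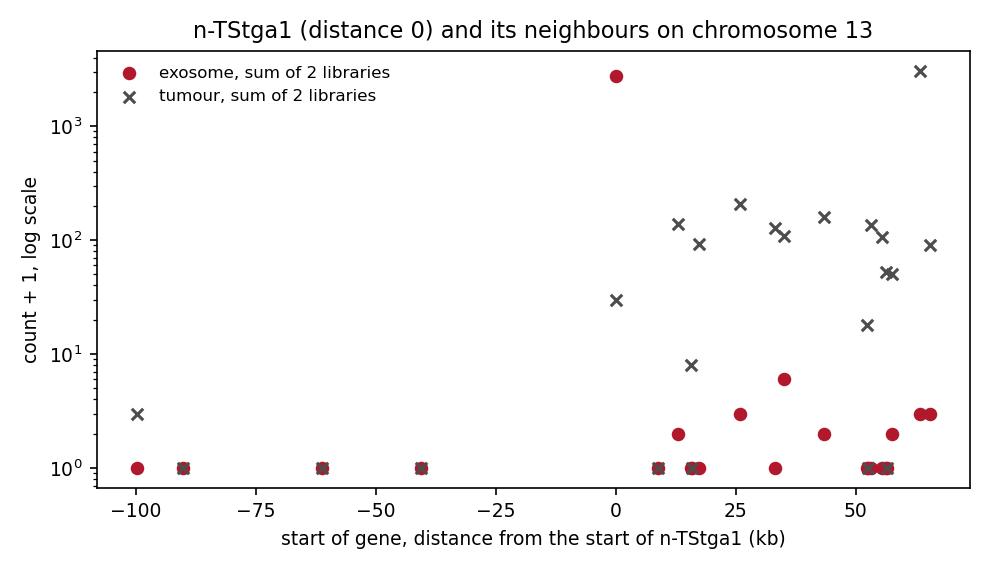
Counts plus 1, summed over the 2 libraries of each group, on a log axis, for n-TStga1 at distance 0 and for genes within 100 kb on chromosome 13, by distance between gene starts in kb. At n-TStga1 the exosome circle is far above the tumour cross, and at each histone gene the tumour cross is above the exosome circle. The counts are not scaled to depth and the tumour libraries are far deeper, so the order at the histone genes partly reflects depth. With library totals 3 of the 12 tested histone genes were called lower and none higher, against 11.5% lower over all tested genes.

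The genes most like each member were named by the distance between log2 shares over the 4 libraries, centred on each gene, among 229 genes with at least 10 counts in both exosome libraries (a bar that n-TSaga9 itself missed, with 9) and at least 1 in every library. For n-TStga1 the nearest was Rpph1 (distance 1.04), followed by Gm24405 (1.52), Gm22739 (1.52), Gm23240 (1.64) and Gm24136 (1.81), which are all annotated as small nuclear RNA. For n-TSaga9 the nearest were the small nucleolar RNA gene Gm22488 (0.41), the small nuclear RNA gene Gm25813 (0.41), n-R5s118 (0.47), Gm24312 (0.49) and n-R5s130 (0.54), the last 3 annotated as ribosomal RNA. The lists share no gene. With 4 libraries this measure follows mainly the difference between the groups.

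Markers fixed for the libraries were thinly covered. Of 7 exosome protein genes, 4 had a count in exosomes, and their summed level was 114 and 96.7 CPM there and 25.9 and 24.0 CPM in tumour. Of the 3 tested, none was called higher and 1 was called lower with TMM, with a median log2 difference of −0.44, while all 3 were called higher with library totals. The 1 called lower was Hspa8, a chaperone gene, whose log2 difference was −1.23 with TMM (edgeR adjusted p = 0.0251) and 1.54 with library totals (edgeR adjusted p = 0.0108), so its direction turned with the scaling. Of 5 carcinoma and epithelium markers, 4 had no exosome count, but Epcam, Cdh1 and Krt19 had none in tumour either. Krt8 had 2 and 0 tumour counts. Krt18 counts were 11 and 4 in tumour and 1 in either exosome library. Its log2 difference was −0.07 with TMM and 2.66 with library totals, and Krt18 was called under neither scaling. The 5 erythroid genes, which mark blood, summed to 268 and 483 CPM in exosomes and 114 and 81.2 CPM in tumour, and 5 leukocyte markers to 6.54 and 50.6 CPM against 4.81 and 3.32 CPM. With TMM, Hba-a1 and Hba-a2 were called lower in exosomes, and with library totals all 4 tested erythroid genes were called higher. The 5 fibroblast markers summed to 78.5 and 101 CPM in exosomes against 9.42 and 7.37 CPM, and 3 endothelium markers to 9.81 and 18.4 CPM against 0.963 and 0.737 CPM. With TMM none of the 2 leukocyte, 2 fibroblast and 1 endothelium genes tested was called. With library totals all of them were called higher, as were 63.8% of all tested genes. The exosome sums rest on 13 leukocyte, 46 fibroblast and 7 endothelium counts over both libraries. Between the exosome replicates the erythroid sum was higher in replicate 2 and n-TStga1 in replicate 1, and nothing is read from these orders in 2 libraries. The part of these cells in the counts of the members was not tested.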

How the data were processed

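RNA of 2 exosome and 2 tumour libraries was measured, grouped by the labels' titles. Per the labels, adaptors were ligated to total RNA, which was amplified by reverse transcription and PCR and excised from a gel. The deposited counts are whole numbers per gene without normalization, per the file headers. The authors' FPKM, per the file headers, equal count over gene length and library total for the 3 serine genes within 0.0173%. TopHat2 2.0.9, Cufflinks 2.1.1, Cuffdiff and GRCm38.p4 are named in the submitters' processing notes. For annotation, counter, strand and reads with several matches, the method is not stated in those sources. Symbols and the sequences compared came from GENCODE M21 (46574 gene IDs matched) and body positions from RefSeq on GRCm38.p6. The sequences themselves are not reported here.

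The test was edgeR's (4.0.16, R 4.3.3) on counts (filterByExpr, minimum count 10, minimum total 15, TMM, quasi-likelihood, group as the only term). Exosome libraries had TMM factors of 2.39 and 2.91, tumour libraries 0.391 and 0.368. SE is the absolute difference over the square root of F. The procedure was tested on simulated data. DESeq2 1.42.0 and other settings are in the closing section. Pathway genes were named where called, up to 3 a list by mean level, together with Rpph1; genes below that bar (Elac2, Ssb, Sars, Eef1a1, Trmt1, Xpot, Ran, mt-Ts1, Rn7sk, Vaultrc5) were chosen after their values were seen, as was Gm44456. The members and lists were chosen with earlier results of these data known.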

Additional observations from a re-analysis of the deposited data

How the results depend on the processing

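With library totals in place of TMM, 920 genes were called higher and 166 lower in exosomes, against 230 and 318, and the log2 differences were 12.15 for n-TStga1, 4.44 for n-TSaga9 and 10.83 for the summed pair, against 9.37, 1.66 and 8.06. The median of all tested genes moved from 0.018 to 2.75. Genes that passed the filter on few exosome counts are among those called higher with library totals. With no filter on low counts, 610 genes were called lower and the differences were 8.20, 0.49 and 6.88, with a median over all tested genes of −1.86. With at least 10 counts in at least 2 libraries n-TStga1 had 9.81 and the pair 8.50. Of 89 tested genes on the transfer RNA and RNA polymerase III lists, 75 were called in either direction with TMM, against 38% of all tested genes. With library totals 81 of them were called, against 75.3% of all tested genes. Of the 75, 54 are other RNA polymerase III transcripts (57 tested), mostly 5S copies, and 21 are on the transfer RNA lists (32 tested). Many of the 5S copies had nearly the same counts and are not separate observations. Leaving out each library in turn with the filter applied again gave 82 to 190 genes higher, 190 to 319 lower, 41 to 72 listed genes called (17 to 21 of them on the transfer RNA lists), and differences of 7.04 to 9.61 for n-TStga1, −0.82 to 1.73 for n-TSaga9 and 5.62 to 8.29 for the pair. The n-TSaga9 value turned to −0.17 without tumour replicate 1 and to −0.82 without tumour replicate 2. The median over all tested genes was −1.32 and −1.50 there, so n-TSaga9 stayed above the typical gene. These fits tested 394 and 397 genes in place of 1442. Leaving out each library with the same genes tested, chosen after seeing the data, gave differences of 9.14 to 9.57, 1.42 to 2.04 and 7.82 to 8.32. DESeq2, median-of-ratios scaling and summing the copies changed no direction and no count of calls by over 1.5 times.

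Replicate numbers are shared by the groups, but same-numbered libraries did not deviate together (correlation −0.034 over 1442 genes). With 2 libraries a group and low exosome counts at many genes, this cannot tell whether same-numbered libraries share a source. The main fit used no pairing. A replicate block gave 244 genes higher and 345 lower. It called 76 of 89 listed genes (22 on the transfer RNA lists), against 40.8% of all tested genes. The differences were 9.39, 1.69 and 8.08. Summing Gm44456 with the pair, also chosen after seeing the data, gave 7.66. Tumour values of the members rest on 11 to 31 counts a library and exosome values of n-TSaga9 on 9 and 11, which limits every share and ratio made from them.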
